A study of Mus musculus with 6 samples.

Results

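The genes described here build cholesterol and fatty acids from acetyl-CoA or regulate that synthesis. They were picked by gene symbol from a list of 37. It held 18 enzymes of the sterol pathway, 13 enzymes of fatty acid synthesis and 6 genes grouped as SREBP regulators. These 6 are the genes of the SREBP transcription factors, Srebf1 and Srebf2, with Scap, Insig1, Insig2 and the cholesterol carrier Stard4. Probes for 34 of the 37 were in the table, against 19057 genes in all, and each gene was read at its brightest probe. Acat2, Hmgcs1 and Fdft1, which act early in the sterol pathway, had no probe named for them in the annotation used and were not analysed here, so 15 sterol enzymes remained. RNA of fibroblasts grown from mouse embryos of strain C57Bl/6NCr was read on Illumina bead arrays. The wild-type group (Lasp1+/+) had 3 arrays and the Lasp1 knockout group (Lasp1-/-) had 3. Lasp1 encodes an actin-binding protein of focal adhesions, whose loss the submitters link to cell migration and tumours. The labels give no embryo age, culture condition, serum or lipid supply, and do not say whether replicates were separate embryos or cultures. The p-values therefore cover only how far these 6 samples scatter, and that scatter may be technical.

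Cells make cholesterol through the mevalonate pathway, in which acetyl-CoA is joined and phosphorylated into isoprene units, these are condensed to squalene, and squalene is closed to lanosterol and trimmed to cholesterol. Fatty acids start from the same acetyl-CoA, are assembled into palmitate, and are then lengthened by ELOVL enzymes and desaturated by SCD and FADS enzymes. Both branches are switched on by SREBP factors, which SCAP carries from the endoplasmic reticulum to the Golgi for cleavage when sterols are low, while INSIG proteins hold SCAP back when sterols are plentiful.

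Of the measured genes, 4 fell in Lasp1 knockout fibroblasts and 0 rose. Acss2, which makes acetyl-CoA from acetate, fell by 0.75 ± 0.09 (SE) on the log2 scale, and the sterol enzymes Mvd, Ebp and Cyp51 fell by 0.60 ± 0.12, 0.54 ± 0.09 and 0.53 ± 0.09. Of the 15 sterol enzymes, 14 had a difference below 0 and the median log2 difference was -0.24. Over all genes 11054 of 19057 were below 0 and the median was -0.02, and among the 12564 brighter genes, to which nearly all members belong, 7884 were below 0 and the median was -0.05. The fatty acid enzymes other than Acss2 and all SREBP regulators did not pass the test. Calls are at a limma adjusted p under 0.05, by Benjamini-Hochberg over all 19057 genes, and differences are knockout minus wild type.

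These counts are read against the whole table. Of all genes, 4.08% fell and 2.19% rose, 6.28% in either direction. Of the members, 4 of 34 fell and 0 rose by the same limma test, while at an unadjusted p under 0.05, 11 were lower and 1 was higher. At that unadjusted p, 2469 of all 19057 genes were lower and 1079 higher. A group mean above 992.7, the midpoint of the mean intensities of all probes, was reached by 33 of the 34. Among the 12564 genes that reached it 9.52% were called, and the members' count of calls in either direction is near this share. Falls alone were 778 of these 12564 genes and 4 of the 33 members. At an unadjusted p under 0.05, 2428 of the 12564 were lower and 1030 higher, beside 11 and 1 of the 33 members. Whether the members differ from this background was not tested. The 3 knockout arrays lay all below or all above the wild-type arrays at 12 members, 11 of them lower. They did so at 21.3% of all genes, with 2665 of the 19057 lower in this way. Among the 12564 brighter genes they did so at 3471, of which 2387 were lower. The falls made up 65.1% of all calls, and 51.8% after quantile normalization, a scaling under which Mvd, Ebp, Cyp51 and Acss2 still passed in the same direction. With limma, 1196 genes were called in all. Leaving out wild type replicate 3 gave 511 calls, leaving out knockout replicate 2 gave 617, and leaving out knockout replicate 3 gave 463.

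**Figure D1:**
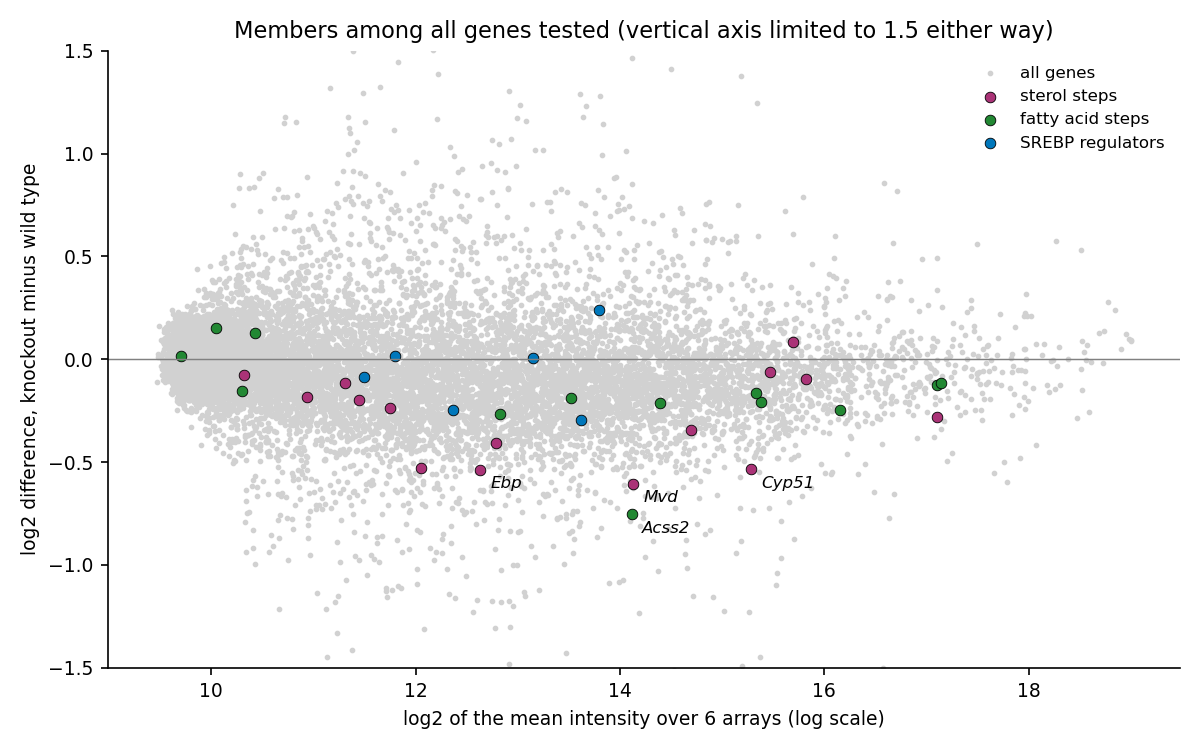
Log2 difference between knockout and wild type (vertical) against the log2 mean intensity over 6 arrays (horizontal) for all genes tested in grey and for the sterol, fatty acid and SREBP regulator genes in colour; 40 genes lie outside the plotted range. The 4 genes that passed are named, and most of the coloured points lie below 0 within the range of the other genes.

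The genes that fell were picked gene by gene with the limma test, and whether they vary together across arrays was not tested. The 250 bases before the start sites of these genes are shown. They are taken from RefSeq (build GRCm38.p6), 5′ to 3′ on each gene's own strand. Capitals mark the NF-Y box CCAAT and the GC box GGGCGG, which may be read on either strand (ATTGG and CCGCCC on the other). Both are common promoter elements, and NF-Y is known to act beside SREBP at sterol genes.
Mvd, chr8:122443423-122443672, minus strand: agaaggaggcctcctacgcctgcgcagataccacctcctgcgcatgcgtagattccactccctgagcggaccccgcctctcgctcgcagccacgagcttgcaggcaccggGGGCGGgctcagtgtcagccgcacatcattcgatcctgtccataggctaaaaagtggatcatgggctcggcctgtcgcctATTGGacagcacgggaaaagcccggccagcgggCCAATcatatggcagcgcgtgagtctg
Cyp51, chr5:4104698-4104947, minus strand: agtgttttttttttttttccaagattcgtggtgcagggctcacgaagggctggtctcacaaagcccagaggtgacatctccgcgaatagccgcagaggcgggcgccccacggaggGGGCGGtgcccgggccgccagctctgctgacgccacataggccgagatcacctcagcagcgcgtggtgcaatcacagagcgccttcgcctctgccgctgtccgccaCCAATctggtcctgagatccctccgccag
Ebp, chrX:8193513-8193762, minus strand: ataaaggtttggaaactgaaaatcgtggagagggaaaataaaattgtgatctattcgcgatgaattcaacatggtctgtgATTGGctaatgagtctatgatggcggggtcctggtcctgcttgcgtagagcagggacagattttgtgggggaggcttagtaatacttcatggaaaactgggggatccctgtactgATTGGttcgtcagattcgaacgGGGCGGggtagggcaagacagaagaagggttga
Acss2, chr2:155517793-155518042, plus strand: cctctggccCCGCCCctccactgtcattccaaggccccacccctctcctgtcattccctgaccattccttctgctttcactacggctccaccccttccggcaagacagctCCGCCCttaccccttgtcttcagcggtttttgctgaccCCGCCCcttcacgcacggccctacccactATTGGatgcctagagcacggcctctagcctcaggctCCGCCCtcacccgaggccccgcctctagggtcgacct

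Each of the 4 held a CCAAT box and a GC box in the supplied window of 250 bases before and 50 after the start. The CCAAT box nearest the start began at position -27 in Mvd, -29 in Cyp51, -55 in Ebp and -73 in Acss2, counted from the first transcribed base as 0. CCAAT was found in 37.4% and GGGCGG in 35.7% of all 32851 windows of this length, and in 37.7% and 49.3% of the 18719 windows of genes tested. The members had 40 windows from 30 genes, and 65.0% and 72.5% of these windows held them. Among measured members that did not pass, 20 of 24 genes with a window had a CCAAT box and 18 had a GC box. Counted by gene in this way, 42.1% of the 15237 tested genes with a window had a CCAAT box and 53.0% a GC box. The core of the sterol regulatory element, searched as TCACNCCAC on both strands, was in 1.24% of all windows. It was in 1 window of the members, that of Hmgcs1, which was not measured. Only this string was searched, so a window without a match may still hold another form of the element. No match overlapped another in the 4 windows shown, while 1 pair of matches overlapped in the window of Fasn and 1 in a window of Elovl1. A match is a description of letters, not of binding.

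The mevalonate steps come first in the sterol pathway. Mvd, which decarboxylates diphosphomevalonate to the first isoprene unit, read 19039, 24938 and 20836 in the wild-type arrays and 15967, 12275 and 14373 in the knockout arrays at its only probe (ILMN_2645275). The groups did not overlap, and the means were 21605 ± 3024 and 14205 ± 1852 (SD, n = 3 each). The knockout level was 65.8% of wild type, with a limma adjusted p of 0.0205. Leaving out wild type replicate 3 ended the call (-0.63, limma adjusted p = 0.0899). So did leaving out knockout replicate 2 (-0.50, limma adjusted p = 0.0813) and knockout replicate 3 (-0.62, limma adjusted p = 0.0981).

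Pmvk, the kinase that acts just before Mvd, read 4451, 5693 and 4749 in wild type and 4538, 2724 and 3255 in knockout. Its difference of -0.53 ± 0.17 was similar in size to that of Mvd, but knockout replicate 1 lay above the lowest wild-type array and the test was not passed (limma adjusted p = 0.124). Without knockout replicate 1 it was -0.73 (limma adjusted p = 0.016). Mvk, the first kinase of the pathway, had a difference of -0.12 ± 0.12, and Idi1, which isomerises the isoprene unit, one of -0.08 ± 0.08 at a probe that read 1308 ± 21.7 in wild type (SD, n = 3). That probe lies close to the array median of 1000, and the lowest value of any probe on any array was 593.

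Fdps condenses isoprene units to farnesyl diphosphate, the branch point to sterols, dolichol and protein prenylation. It read 152307, 163703 and 146148 in wild type and 136982, 116839 and 126666 in knockout, without overlap, a difference of -0.28 ± 0.08 that did not pass (limma adjusted p = 0.0943). Its dimmer probe (ILMN_1232741) went the other way, at 0.52 ± 0.23 (limma adjusted p = 0.318 over all probes), so the direction of Fdps rests on the bright probe.

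Squalene is oxidised by Sqle and closed to lanosterol by Lss. The brightest Sqle probe (ILMN_2737163) read 57924, 60394 and 61111 in wild type and 57503, 57621 and 52605 in knockout, a difference of -0.10 ± 0.07 (limma adjusted p = 0.572). A dimmer Sqle probe (ILMN_2600348) read 18616 ± 2478 and 12058 ± 1361 (SD, n = 3 each), a log2 difference of -0.62 ± 0.11 that passed over all probes (limma adjusted p = 0.0166). The annotation assigns both probes to the same transcript, and which of them reads Sqle better was not tested. Lss read 28075, 32689 and 28239 in wild type and 27794, 20422 and 22256 in knockout. Knockout replicate 1 lay just under the lowest wild-type array, and the difference of -0.35 ± 0.12 did not pass (limma adjusted p = 0.144), whereas without that array it was -0.47 (limma adjusted p = 0.0316).

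Cyp51, the demethylase that takes the first methyl group from lanosterol, read 48175, 42770.0 and 50895 in wild type and 33629, 30331 and 33890 in knockout (probe ILMN_2688075). Every knockout array lay well under every wild-type array. The means were 47280.0 ± 4136 and 32617 ± 1984 (SD, n = 3 each), a 1.45-fold fall (limma adjusted p = 0.00782). Without wild type replicate 3 the difference was -0.48 and just missed the threshold (limma adjusted p = 0.0521). Ebp, the isomerase that moves a double bond in the sterol ring, read 7761, 7857 and 6934 in wild type and 5162, 5610 and 4784 in knockout (probe ILMN_2707043). These groups were also apart, with means of 7517 ± 508 and 5185 ± 413 (SD, n = 3 each), a 1.45-fold fall (limma adjusted p = 0.00711). Without knockout replicate 3 the Ebp difference was -0.48 (limma adjusted p = 0.0504).

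The enzymes between Cyp51 and Ebp, and those after it, did not pass. Nsdhl, which removes methyl groups from the sterol ring, read 8643, 7086 and 8438 in wild type and 6288, 5073 and 6966 in knockout, a difference of -0.41 ± 0.13 (limma adjusted p = 0.105). Its other 3 probes were lower too, by -0.37, -0.34 and -0.13, and none of the 4 passed. Dhcr7, which reduces the last intermediate to cholesterol, had a difference of -0.24 ± 0.12, Sc5d, a desaturase before it, one of -0.20 ± 0.14, and Tm7sf2, a sterol reductase, one of -0.18 ± 0.12. Msmo1, the methyl sterol oxidase, was at -0.06 ± 0.11, with a 95% interval of -0.30 to 0.19. Hsd17b7, a ketosteroid reductase, was the only sterol enzyme with a positive difference at its brightest probe (0.09 ± 0.12, 95% interval -0.18 to 0.35). Its dimmer probe (ILMN_2581059), near the array median, was at 0.23 ± 0.08 (limma adjusted p = 0.18 over all probes). There all knockout arrays lay above all wild-type arrays. The mean of both Hsd17b7 probes was at 0.16 (limma adjusted p = 0.402). The signs of Msmo1 and Hsd17b7 changed when some single arrays were left out, that of Msmo1 also under quantile normalization. A p that misses the threshold does not show that these genes were alike in both genotypes.

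**Figure D2:**
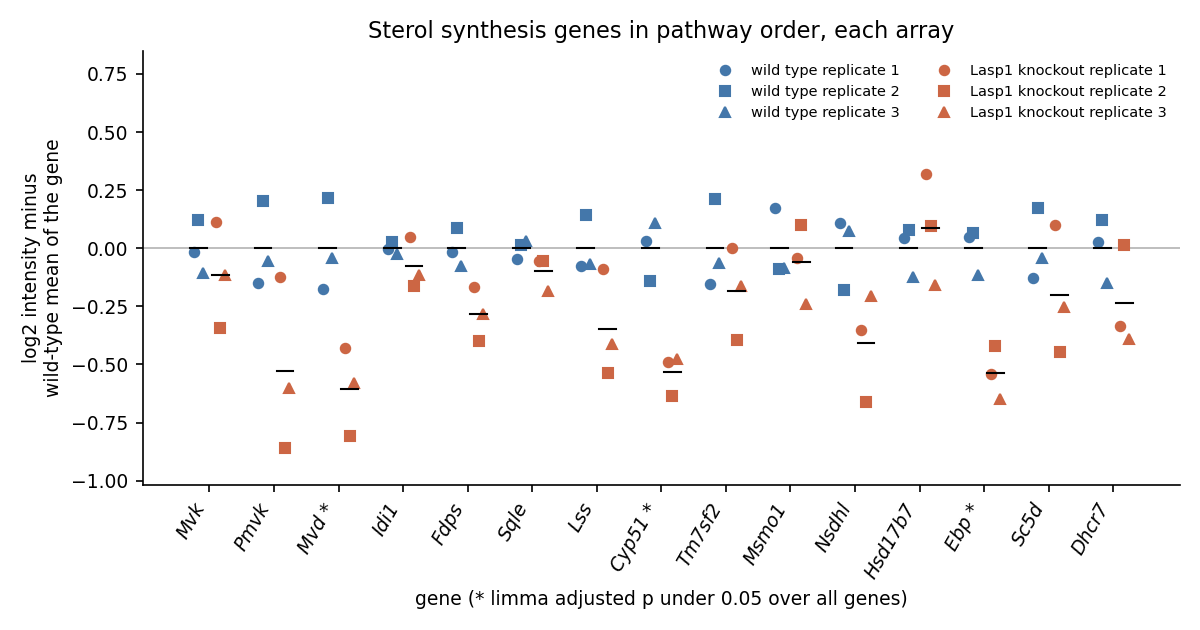
Log2 intensity of 15 sterol enzymes in pathway order, minus the wild-type mean of the gene, for the 3 wild-type (blue) and 3 knockout (orange) arrays, with black lines at group means. Mvd, Cyp51 and Ebp (asterisks) passed the limma test, knockout replicate 3 lies below all wild-type arrays at every gene, and knockout replicate 1 lies below all of them at 8 genes.

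The knockout arrays did not carry the sterol difference to the same degree. Knockout replicate 3 lay below all 3 wild-type arrays at 15 of 15 sterol enzymes, knockout replicate 2 at 12 and knockout replicate 1 at 8. Over all genes the same shares were 36.5%, 37.1% and 26.7%. The median distance of the sterol enzymes from the wild-type mean was -0.25, -0.40 and -0.09 on the log2 scale in knockout replicates 3, 2 and 1. Knockout replicate 2 was the lowest of the 6 arrays at 10 sterol enzymes, and wild type replicate 2 the highest at 9. Over all 19057 genes they were so at 4585 and 6078. The upper quartile over all probes was 2330 in wild type replicate 2 and 2283 in knockout replicate 1, against 2018 to 2112 in the other 4 arrays. With both left out, a comparison added after the data had been seen, limma called 6 sterol enzymes instead of 3, the same 3 with Pmvk (-0.63), Nsdhl (-0.52) and Lss (-0.40). It called 1 when the third array of either genotype was dropped, 2 when knockout replicate 2 was, and 5 when knockout replicate 1 was. The part of these array differences in the sterol result was not tested.

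Acss2 showed the largest change among the fatty acid enzymes. It read 20102, 24283 and 22547 in wild type and 14003, 13082 and 12574 in knockout (probe ILMN_2734181). The knockout arrays lay close together and far from the lowest wild-type array, and the means were 22311 ± 2101 and 13219 ± 724 (SD, n = 3 each). The 1.68-fold fall had a limma adjusted p of 0.00126, and the gene passed under all 15 alternative settings, with differences of -0.83 to -0.45, the smallest being the mean of its 2 probes. Its dimmer probe (ILMN_1231116) read 1211 ± 48.2 and 1096 ± 55.2 (SD, n = 3 each), near the array median. There the difference was -0.14 ± 0.07 and did not pass (limma adjusted p = 0.385 over all probes). For Acss2, Mvd, Cyp51 and Ebp the exact two-sided permutation p was 0.1, the smallest that 3 arrays against 3 allow. Acly, which makes acetyl-CoA from citrate and so feeds the same pool, had a difference of -0.12 ± 0.08 and was not called. Its 95% interval (-0.30 to 0.05) did not overlap that of the bright Acss2 probe (-0.95 to -0.55). It did overlap that of the dimmer Acss2 probe (-0.30 to 0.01). Whether Acly and Acss2 differ in their response was not tested.

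The carboxylases and the synthase that build palmitate were read at probes near the array median. Fasn, the fatty acid synthase, read 888, 1040.0 and 1087 in wild type and 1121, 1134 and 1082 in knockout, close to the array median of 1000. Knockout replicate 3 lay inside the wild-type range, and the difference of 0.15 ± 0.09 did not pass (limma adjusted p = 0.437). Acaca, the cytosolic acetyl-CoA carboxylase, read 830 ± 46.4 and 839 ± 36.5 (SD, n = 3 each), below the median of all probe means in both groups, and Acacb, the mitochondrial form, had a difference of -0.15 ± 0.10. Me1, the malic enzyme that supplies NADPH, read 1312 ± 119 and 1433 ± 71.2 (SD, n = 3 each), a difference of 0.13 ± 0.09. How far these dim probes can show a change was not tested.

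The elongases and desaturases had brighter probes, and none of them passed. Elovl5, which lengthens polyunsaturated fatty acids, and Elovl6, which lengthens palmitate, were at -0.24 ± 0.07 (limma adjusted p = 0.0979) and -0.21 ± 0.08 (limma adjusted p = 0.157), with groups that did not overlap. Scd1 and Scd2, which make monounsaturated fatty acids, were at -0.21 ± 0.09 and -0.19 ± 0.10. Fads2 and Fads1, the desaturases of polyunsaturated fatty acids, were at -0.27 ± 0.13 and -0.11 ± 0.07. Fads2 read 7723, 8383 and 7530 in wild type and 7593, 5236 and 7027 in knockout, so its difference came mostly from knockout replicate 2. Elovl1, which makes very long chains, was at -0.17 ± 0.10, and all 4 of its probes were lower, 1 of which passed over all probes (ILMN_1224780, -0.34 ± 0.08, limma adjusted p = 0.0418). Of the members' 59 probes 6 were called, beside a share of 3.9% over every probe on the array. That share includes dim probes and probes without a gene symbol, and a share over brighter probes was not counted. The median log2 difference of the 13 fatty acid enzymes was -0.17, with 10 lower, and the limma test called 1 fall and 0 rises, with 4 lower and 0 higher at an unadjusted p under 0.05. Among the 12564 brighter genes 7884 were lower, 2428 of them at an unadjusted p under 0.05.

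**Figure D3:**
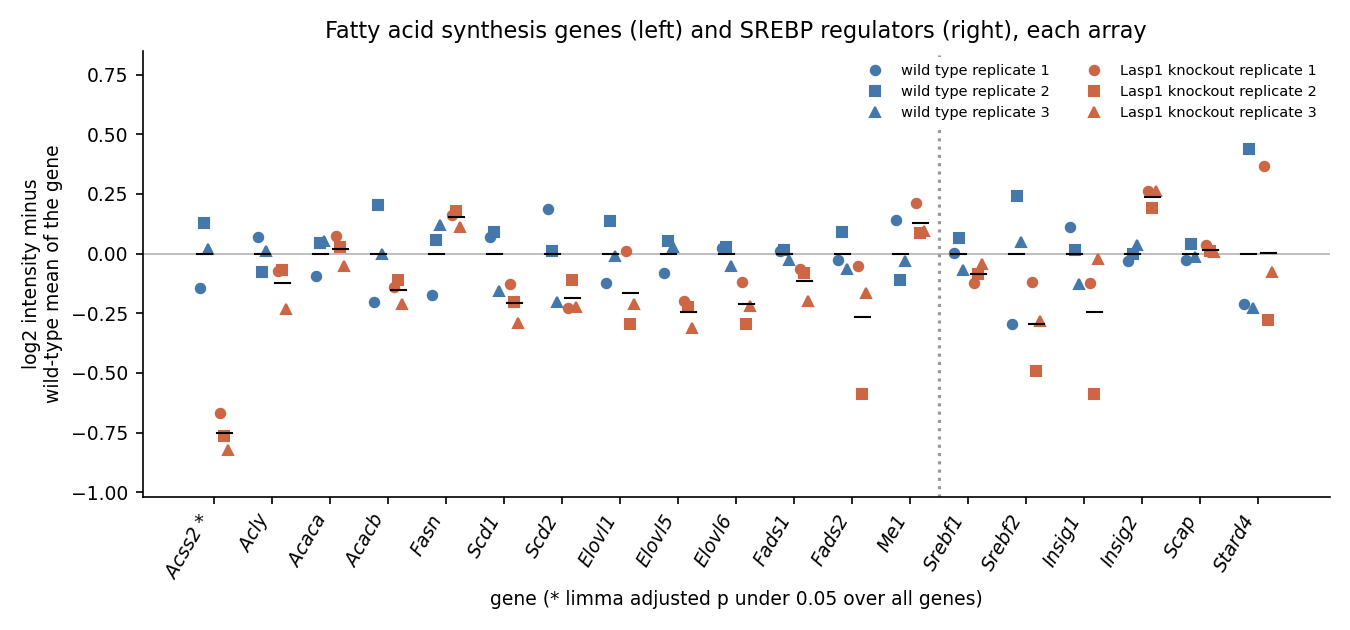
Log2 intensity of 13 fatty acid enzymes (left of the dotted line) and 6 SREBP regulators (right), minus the wild-type mean of the gene, for the 3 wild-type (blue) and 3 knockout (orange) arrays, with black lines at group means. Acss2 (asterisk) passed the limma test; Insig2 is the regulator whose knockout arrays all lie above the wild-type arrays.

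None of the SREBP regulators was called by limma, with 0 lower and 1 higher at an unadjusted p under 0.05. Srebf2, the factor that drives sterol genes, read 11210.0, 16250 and 14221 in wild type and 12663, 9759 and 11304 in knockout, with overlap and a difference of -0.30 ± 0.14 (limma adjusted p = 0.315). Its dimmer probe was at 0.06 ± 0.14. Srebf1, the factor that mainly drives fatty acid genes, read 2963, 3101 and 2822 in wild type and 2719, 2788 and 2873 in knockout, a difference of -0.08 ± 0.07 with a 95% interval of -0.25 to 0.08. Scap, the escort of both, read 3471, 3628 and 3498 in wild type and 3619, 3557 and 3543 in knockout, and its difference of 0.02 ± 0.07 had a 95% interval of -0.13 to 0.17. Its dimmer probe (ILMN_1229873) was at 0.50 ± 0.20 (limma adjusted p = 0.272 over all probes), and the mean of both was at 0.26 (limma adjusted p = 0.316), so the value for Scap depends on the probe.

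Neither INSIG gene passed. Insig1, itself a sterol-responsive target of SREBP, read 6150, 5756 and 5206 in wild type and 5224, 3784 and 5609 in knockout, a difference of -0.24 ± 0.14 (limma adjusted p = 0.429). The other 3 probes of Insig1 were at -0.12, 0.03 and 0.12, and the mean of all 4 was at -0.05 (limma adjusted p = 0.871), so its direction rests on the probe chosen. Insig2 read 12749, 13005 and 13365 in wild type and 15619, 14886 and 15659 in knockout, with all knockout arrays above all wild-type arrays and a difference of 0.24 ± 0.07 (limma adjusted p = 0.0803). Insig2 was the member with the smallest p among those that were higher, and its 3 probes had a mean difference of 0.13 (limma adjusted p = 0.333). Insig2 passed after quantile normalization (0.34, limma adjusted p = 0.0194) and with array weights (0.22, limma adjusted p = 0.0281). Whether Insig1 and Insig2 differ in their response was not tested. Stard4, a carrier of cholesterol between membranes, spread widely in both groups, at 9100 ± 2546 and 9068 ± 2133 (SD, n = 3 each). Stard4 was highest in wild type replicate 2, at 12039, and next in knockout replicate 1, at 11449.

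**Figure D4:**
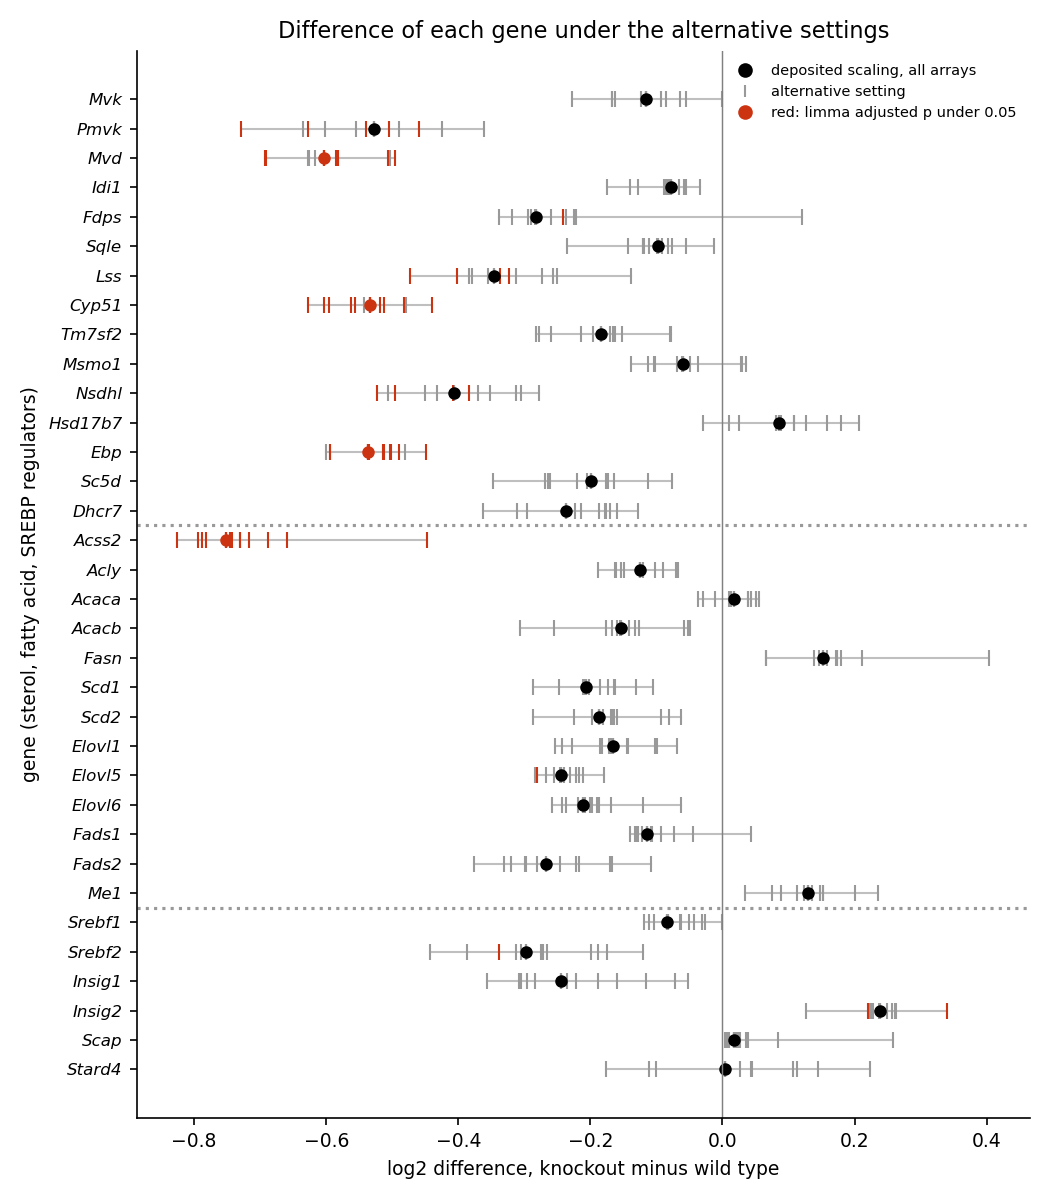
Log2 difference between knockout and wild type (horizontal) of each of 34 genes in the deposited scaling with all arrays (points) and under 15 alternative settings (ticks), in red where the limma adjusted p was under 0.05. Acss2 is red throughout, while Mvd, Cyp51 and Ebp are red in 10, 13 and 13 settings and Pmvk, Lss and Nsdhl in some.

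Other genes of the pathways were counted from 4 lists. Of 12 measured genes of the isoprenoid branch, which makes dolichol, ubiquinone side chains and prenyl groups, limma called 0, with 1 lower and 0 higher at an unadjusted p under 0.05 and a median log2 difference of -0.02. It called 0 of 9 genes of SREBP processing and INSIG or SCAP turnover (2 lower and 0 higher unadjusted, median -0.13) and 0 of 14 genes of cholesterol uptake, storage and efflux (3 lower and 2 higher unadjusted, median -0.08). Among 28 measured genes of the list of other fatty acid genes, limma called 3 falls and 1 rise. Calls made up 6.28% of all genes and 9.52% of the brighter genes. At an unadjusted p under 0.05, 5 genes of this list were lower and 3 higher, with a median of -0.01. The median over the sterol enzymes of -0.24 is beside these a description, since the lists were not tested against each other.

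Mid1ip1, whose protein promotes the polymerisation and activity of acetyl-CoA carboxylase, read 12852, 12645 and 13111 in wild type and 8863, 8313 and 7689 in knockout. The groups were far apart, and the fall of 0.64 ± 0.08 (limma adjusted p = 0.00137) kept its call under every alternative setting. Acsl3, which activates long-chain fatty acids at lipid droplets, fell by 0.52 ± 0.11 (limma adjusted p = 0.0239), but averaging its 3 probes gave -0.20 (limma adjusted p = 0.0937). Idh1, the cytosolic isocitrate dehydrogenase that supplies NADPH, fell by 0.38 ± 0.09 (limma adjusted p = 0.0415). Fads3, a relative of Fads1 and Fads2, rose by 0.41 ± 0.10 (limma adjusted p = 0.0467), and averaging its 3 probes gave 0.16 (limma adjusted p = 0.14). The calls of Acsl3, Idh1 and Fads3 ended when the third wild-type array, the second knockout array or the third knockout array was left out. Leaving out wild type replicate 1 did so for Idh1 and Fads3, and leaving out knockout replicate 1 for Fads3, with differences of 0.33 to 0.50 for Fads3, -0.39 to -0.32 for Idh1 and -0.56 to -0.43 for Acsl3 in these cases.

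Lasp1 itself fell to 35.4% of wild type at its brightest probe (limma adjusted p = 1.17e-05); whether that probe lies in the disrupted stretch is not given in the labels. Over all genes 4.08% fell and 2.19% rose, and of the 12564 brighter genes 778 fell and 418 rose. Of 10 fibroblast markers, all bright by the limit of 992.7, 5 fell, among them Col1a2 (-0.84 ± 0.17), Lum (-0.80 ± 0.15) and Pdgfrb (-0.75 ± 0.18). Their summed intensity was 996357 to 1157293 in wild type and 812180 to 867690 in knockout. Of 8 measured proliferation markers 6 fell, led by Mcm3 (-0.80 ± 0.11), Mcm2 (-0.77 ± 0.10) and Mcm6 (-0.74 ± 0.08), and their summed intensity was 91172 to 100080 in wild type and 55706 to 66898 in knockout. Of 11 measured adipocyte markers 3 fell, Adipoq (-2.02 ± 0.10), Lpl (-1.49 ± 0.12) and Lep (-0.29 ± 0.07), and the list summed to 66820 to 82047 and 33460 to 38095. Fabp4, Plin1, Cidec and Retn, also markers of fat cells, stayed under 992.7 in both groups. Lpl, at 55329.6 ± 6536 and 19739 ± 3021 (SD, n = 3 each), made up most of the difference in the adipocyte sum. The brighter adipocyte markers Pparg (-0.13 ± 0.10) and Plin4 (0.12 ± 0.12) did not pass, nor did Cebpa (-0.18 ± 0.07) and Slc2a4 (-0.05 ± 0.07). Of the few markers of macrophages, endothelium and epithelium, Lyz2 rose (0.56 ± 0.10) and Krt8 fell (-0.71 ± 0.07). Summed intensity was 6303 to 7349 in wild type and 8574 to 8965 in knockout for 4 macrophage markers, 4882 to 5436 and 4771 to 4904 for 4 endothelial markers, and 6370.0 to 6552 and 5548 to 5796 for 5 epithelial markers. Lyz2, at 3772 ± 471 and 5535 ± 231 (SD, n = 3 each), made up most of the difference in the macrophage sum, and Ptprc (0.07 ± 0.07), Adgre1 (0.07 ± 0.08) and Csf1r (0.09 ± 0.07) did not pass. Of the endothelial markers limma called 0, with 1 lower and 1 higher at an unadjusted p under 0.05. The other 4 epithelial markers did not pass. At an unadjusted p under 0.05, 1 epithelial marker was lower (Krt8) and 1 higher (Krt18, 0.18 ± 0.08, limma adjusted p = 0.246). The part of the fibroblast, proliferation and adipocyte markers that fell, and of Lyz2 and Krt8, in the falls of Acss2 and the sterol enzymes was not tested. In such a bulk culture, fewer cells of a type and less RNA per cell cannot be told apart.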

How the data were processed

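Per the labels' protocols, total RNA of 6 samples was made into biotinylated cRNA and hybridised to bead arrays. The deposited table holds intensities, linear and with a median of 1000 on every array; the lowest value was 593, and where such values include background light, differences of dim probes are understated. How the authors scaled the arrays or treated background, and with which software, is not stated in any label or header used here. Arrays give no counts, and their number limits the precision.

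Of 45281 probes, 34885 had 1 gene symbol in the platform annotation, 18 had several and 10378 had none; probes of the last 2 kinds entered no gene test. A gene was read at the probe with the highest mean log2 value. Log2 intensities of all 6 arrays were fitted across all genes in limma 3.58.1 under R 4.3.3 (lmFit with eBayes, 4 residual and 5.13 prior degrees of freedom), with genotype as the only term, two-sided, with Benjamini-Hochberg adjustment over all genes and a threshold of 0.05. Errors of log2 differences are moderated standard errors, and 95% intervals come from the same fit without adjustment. Probes of the members were also fitted over all probes. The fit was tested on simulated data.

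The members, gene lists, motifs and alternatives were chosen with earlier results of these data known. Values array by array were given for the genes called, the 6 largest differences among members not called, and Srebf1, Srebf2, Scap, Insig1, Insig2, Fasn and Sqle; of each other list, up to 3 called rises and 3 called falls by size. Alternatives were quantile normalization, upper quartile scaling, normexp background correction (offset 50), a filter on dim genes, a trended and robust eBayes (with statmod 1.5.0), weighted arrays, averaged probes of a gene, blocking on replicate number, and dropping single arrays. Leaving out 2 arrays together was added after seeing the data.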

Additional observations from a re-analysis of the deposited data

How the results depend on the processing

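The number of sterol enzymes that fell, 3 in the deposited scaling, was 6 after upper quartile scaling, 7 with array weights, 6 with neither of the 2 arrays of highest upper quartile (added after seeing the data) and 1 to 5 when single arrays were left out. It was 0 by limma after normexp background correction, where 5 were lower at an unadjusted p under 0.05 and Mvd, Cyp51 and Ebp kept differences of -0.63, -0.54 and -0.60 (limma adjusted p = 0.112, 0.107 and 0.0784). Array weights gave 2 falls among fatty acid enzymes (Elovl5 beside Acss2), and 1 rise (Insig2) and 1 fall (Srebf2) among SREBP regulators. Quantile normalization gave 1 rise among the regulators (Insig2). In the weighted fit wild type replicate 3 had a weight of 3.465, against 0.543 and 0.517 for wild type replicates 1 and 2. The weighted wild-type level therefore rested largely on that array. The number of all genes called, 1196, was 2095 after quantile normalization, 1862 after upper quartile scaling, 538 after normexp, 3267 with array weights and 463 to 1594 without single arrays. With replicate number as a block it was 415, with 2 falls among sterol enzymes, where Mvd was lost (limma adjusted p = 0.141). The numbers share no stated origin: same-numbered arrays had correlations of deviations of -0.41, -0.34 and 0.22, and 2 of 6 arrays correlated best with their own number. Signs turned, without passing any test, for Fdps (0.12) and Fads1 (0.043) with the mean of all probes, Msmo1 after quantile normalization (0.036) and without single arrays (-0.14 to 0.030), Acaca with array weights (-0.037) and without single arrays (-0.030 to 0.052), Hsd17b7 (-0.030 to 0.21) and Stard4 (-0.18 to 0.22) without single arrays. Under the alternatives run, the other members kept their sign and Acss2 passed throughout. The cause of these changes was not tested. The probes of Fasn, Acaca, Acacb, Idi1 and Me1 read near the array median, and how far background limits their values was not tested.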
